A study of Homo sapiens with 11 samples.

Results

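The HOX cluster genes were followed through the expression arrays of 2 lung adenocarcinoma cell lines, with and without an introduced TRIM58. A gene counted as a member when its symbol was HOXA, HOXB, HOXC or HOXD followed by a number, antisense transcripts left out. Of the 39 such genes in the RefSeq table, 38 had a probe named here (42 probes), among 20249 gene symbols on the array, and the exception was HOXA6. Chromosome 7 carries 10 of these 38 genes as the HOXA cluster, chromosome 17 carries 10 as HOXB, chromosome 12 carries 9 as HOXC and chromosome 2 carries 9 as HOXD. Both A549 and HCC827 are established lines from human lung adenocarcinoma. Their cells had been infected with the retroviral vector pMXs-Neo, either empty (mock) or carrying FLAG-tagged wild-type TRIM58 (TRIM58-WT), and selected with G418, so mock and TRIM58-WT cells both carry the vector. TRIM58 is a ubiquitin ligase, and the arrays ask which transcripts differ when it is restored. There were 3 A549 mock replicates, on arrays 1-1, 1-2, 2 and 3, and 3 A549 TRIM58-WT replicates. HCC827 had 2 replicates of each kind, and apart from the A549 mock each replicate had 1 array. Mock arrays 1-1 and 1-2 share a control cell in the labels and were averaged to 1 replicate. The methods state that clones were isolated after selection, and the growth assays of the study name A549 clones and HCC827 crude transfectants. The labels do not say whether the replicates are separate clones or cultures, so the p-values measure only the spread between these samples.

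HOX proteins are homeodomain transcription factors that give cells along the body axis their positional identity. In each cluster the genes stand in the order in which they act along the body, from the low-numbered anterior genes to the high-numbered posterior ones, and they are often regulated in blocks. Adult lung tissue and lung cells retain an anterior and central HOX pattern, and HOX proteins bind DNA together with PBX, MEIS and PKNOX cofactors.

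Levels are log2 of the background-subtracted signal minus the 75th percentile of the array, so 0 is the 75th percentile, and a level of 1 probe is compared between arrays and never with another probe. A probe was tested when at least 1 of the compared groups had it marked well above background by the scanner software throughout, that is on all arrays of that group. A gene was called at a Benjamini-Hochberg adjusted p under 0.05 over all probes tested by limma if it also differed 2-fold or more. The 11 arrays lay on 2 slides, with all HCC827 arrays on slide 1. Between 40.1% and 50% of probes were well above background per array, and no spot was saturated. The TRIM58 probe itself went against the labels. It was well above background on A549 mock array 3 alone (-0.71), and lay between -5.64 and -4.63 on the 5 arrays labelled TRIM58-WT. Where this probe lies relative to the introduced coding sequence was not analysed here, so each direction below is that of arrays labelled TRIM58-WT against arrays labelled mock. In A549, mock array 3 stood nearer to TRIM58-WT arrays 2 and 3 (SD of the log2 difference 0.56 and 0.56 over probes well above background on both arrays) than to mock arrays 1-1, 1-2 and 2 (0.69, 0.65 and 0.75). TRIM58-WT arrays 2 and 3 differed by 0.21, less than mock arrays 1-1 and 1-2 of the same control cell (0.26). The epithelial markers KRT19, EPCAM and KRT8 were called lower in A549 TRIM58-WT. The summed signal of the 5 epithelial markers was 551 to 661 times the 75th percentile there against 1018 to 1314 in A549 mock, with 3 to 4 of 5 markers above background against 5. The lung epithelial markers NKX2-1 and NAPSA were well above background throughout HCC827, NKX2-1 was at background on every A549 array, and NAPSA on all but 1 mock and 1 TRIM58-WT array. The summed signal of the 4 lung epithelial markers was 59.4 to 69.2 in HCC827 mock and 25.0 to 31.6 in HCC827 TRIM58-WT. Limma called neither of the 2 tested between these groups (2 of 2 at an unadjusted p under 0.05). The 5 epithelial markers summed to 871 to 872 in HCC827 mock and 1027 to 1170 in HCC827 TRIM58-WT. The 4 endothelial markers were at background on every array, 1 of 6 fibroblast markers was above it on each A549 TRIM58-WT array (COL1A1, at least 7.13-fold higher than in mock). Another, LUM, was above it on 3 of the 4 A549 mock arrays, and COL1A1 was above it on HCC827 mock array 1. The summed fibroblast signal was 0.274 to 1.25 in A549 mock and 0.538 to 1.81 in A549 TRIM58-WT, and 1 to 2 of 4 leukocyte markers were above it in every group. The part of these differences in the HOX results was not tested.

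Of the 38 members, 14 were well above background on all 11 arrays, 6 in HOXA, 4 in HOXB, 4 in HOXC and none in HOXD. Another 14, read from the brightest probe of each gene, were at background on all 11 arrays, between -5.74 and -2.32, and 7 of these lie in HOXD. Those of HOXB were HOXB1 and HOXB7, those of HOXC were HOXC5, HOXC11 and HOXC12, and those of HOXD were HOXD3, HOXD4, HOXD9, HOXD10, HOXD11, HOXD12 and HOXD13. HOXB3 and HOXB4 were above background on 1 array each (A549 TRIM58-WT 1 and HCC827 TRIM58-WT 2). The other 22 members passed the filter in at least 1 comparison, and their levels are given below. By group, 18 members were above background on every A549 mock array, 18 on every A549 TRIM58-WT array, 18 on every HCC827 mock array and 16 on every HCC827 TRIM58-WT array.

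**Figure D1:**
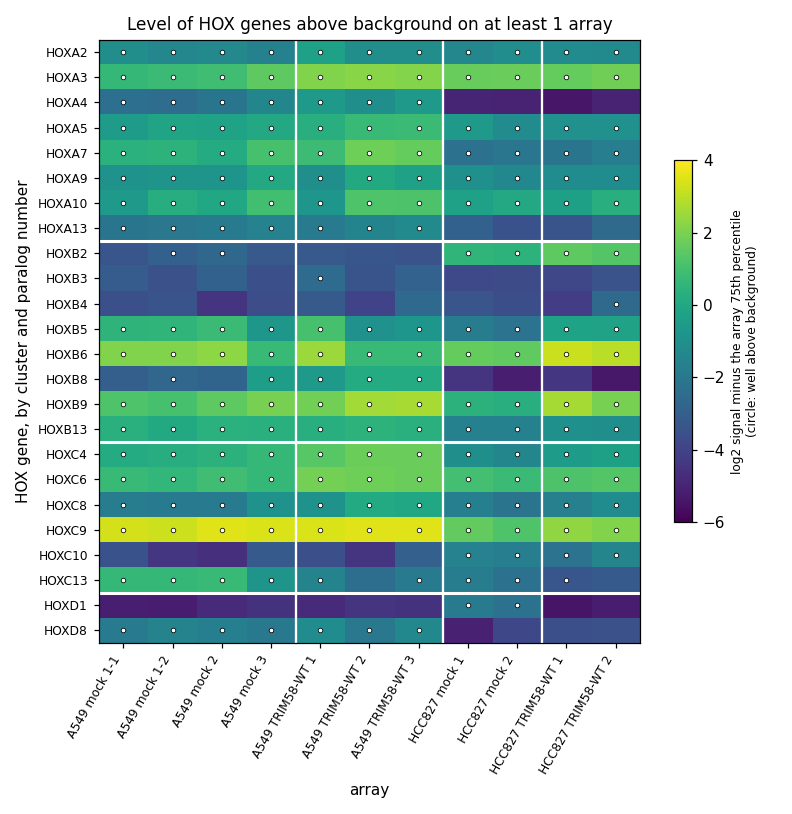
Level of the 24 HOX genes above background on at least 1 array (rows, by cluster and number) on the 11 arrays (columns, by group), as log2 signal minus the 75th percentile of the array, with a circle where the probe was well above background. The HOXD rows carry circles in 2 places: HOXD8 on the A549 arrays and HOXD1 on both HCC827 mock arrays.

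The mock cells of the 2 lines had different HOX profiles. Of 21 members tested, 13 were called between A549 mock and HCC827 mock, 10 higher in A549 and 3 higher in HCC827, where 31.9% of all genes tested were called (15.4% higher and 16.5% lower in A549). The median difference of the tested members was 0.74 against -0.06 for all genes. Groups did not overlap for 16 members, against 72.2% of all genes, and 14 had an unadjusted p under 0.05, against 54.5%. Of the 13 called, HOXA4, HOXA13, HOXD8, HOXB2, HOXC10 and HOXD1 passed the filter only through the line where they were higher. Their adjusted p therefore rest partly on levels at or near background. With the filter on every array, 7 of 15 members were called, all 7 higher in A549 mock. The share of all genes called under that filter was not counted, and the 31.9% belongs to the main filter.

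In bulk RNA, fewer cells that express a gene and less RNA per cell cannot be told apart. Of the members called, 3 were above background in A549 mock and not in HCC827. HOXA4, a central gene of the HOXA cluster, read -2.35, -2.44, -2.10 and -1.41 on the A549 mock arrays 1-1, 1-2, 2 and 3 and -4.96 and -5.06 on HCC827 mock arrays 1 and 2. HOXA13, the most posterior HOXA gene and one known for limb and hindgut development, read -2.13, -2.02, -1.83 and -1.57 against -2.90 and -3.46. HOXD8, a central HOXD gene, read -1.89, -1.52, -1.70 and -1.97 against -5.09 and -3.84. All 4 A549 mock arrays lay above both HCC827 mock arrays for each of them, and no HCC827 array reached the detection level, so the differences are at least 2.41-fold, 2.36-fold and 2.71-fold (adjusted p = 0.00166, 0.0114 and 0.00474, limma).

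Another 7 members were above background in both lines and called higher in A549 mock. HOXA7, a central HOXA gene, read 0.40, 0.45, 0.14 and 1.07 on A549 mock and -2.22 and -2.09 on HCC827 mock (difference 2.71, SE 0.31, adjusted p = 0.00206, limma). HOXC9, a gene of thoracic identity, read 3.35, 3.22, 3.53 and 3.42 against 1.59 and 1.23 (2.00, SE 0.19, adjusted p = 0.00120, limma). HOXB13, the posterior HOXB gene best known from prostate tissue, read 0.33, 0.06, 0.38 and 0.34 against -1.61 and -1.61 (1.92, SE 0.16, adjusted p = 0.000729, limma). In these 3 genes the spread within a line was small beside the gap between lines. HOXC4, HOXB5, HOXB9 and HOXC13 followed with differences of 1.65, 2.19, 1.19 and 2.20 and adjusted p of 0.00384, 0.0184, 0.0181 and 0.0247 by limma. For HOXB5 and HOXC13 the gap was narrowest at A549 mock array 3, whose values are given below with the TRIM58 comparison.

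The opposite direction held for 3 members. HOXB2, an anterior gene that acts in the hindbrain, read 0.53 and 0.45 on HCC827 mock and -3.32, -2.93, -2.63 and -3.20 on A549 mock, where 2 of 4 arrays were above background (-3.48, SE 0.23, adjusted p = 0.000380, limma). HOXC10, a posterior gene of lumbar identity, read -1.56 and -1.73 on HCC827 mock and -3.49, -4.42, -4.62 and -3.16 on A549 mock, none of the latter above background, a difference of at least 2.37-fold (adjusted p = 0.0119, limma). HOXD1, the anterior end of the HOXD cluster, read -1.82 and -2.23 on HCC827 mock and -5.16, -5.25, -4.82 and -4.52 on A549 mock, again none above background, a difference of at least 1.82-fold (adjusted p = 0.00116, limma). This bound is under 2-fold, and HOXD1 met that limit only through the fitted difference (-2.82), which rests on levels at background. In HOXD, HOXD1 was the only gene above background on the HCC827 mock arrays and HOXD8 the only gene above it on all A549 mock arrays. The remaining tested members, HOXA2, HOXA3, HOXA5, HOXA9, HOXA10, HOXB6, HOXC6 and HOXC8, differed by -0.63 (HOXA3) to 0.74 (HOXA5) and were not called. Without HCC827 mock replicate 2 the count fell from 13 to 8, and it was 6 with normexp background correction.

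**Figure D2:**
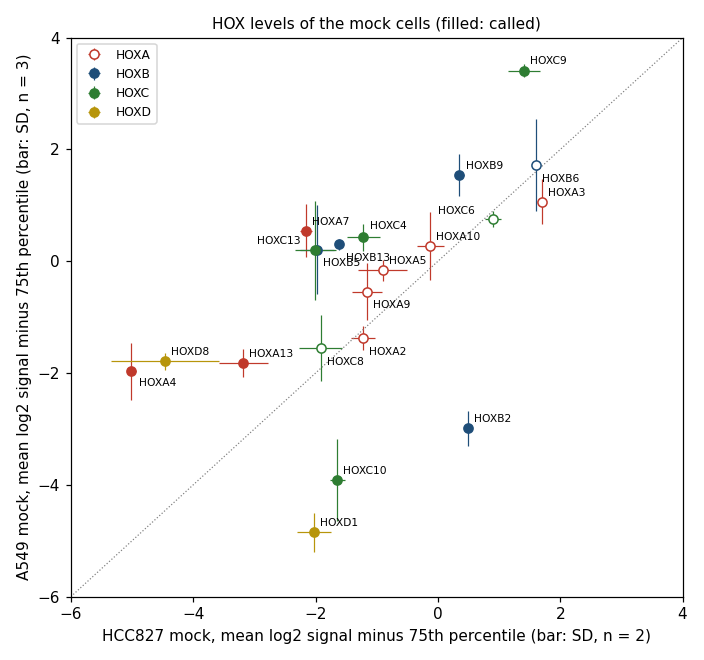
Mean level of the 21 tested HOX genes in HCC827 mock (horizontal, n = 2) against A549 mock (vertical, n = 3), as log2 signal minus the 75th percentile, with SD bars, colours by cluster and filled points for called genes. HOXB2, HOXC10 and HOXD1 lie below the dotted line of equal level, and the 10 genes called higher in A549 lie above it.

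Between A549 arrays labelled TRIM58-WT and mock, the called HOX genes lay in the HOXA and HOXC clusters. HOXA3, HOXC4 and HOXC6 were called higher, by 2.11-fold, 2.28-fold and 2.07-fold, and HOXC13 lower, by 4.39-fold. These are 4 of 19 members tested, where 7.94% of all genes tested were called (3.89% higher and 4.05% lower). The median change was 0.58 over the 19 members and 0.03 over all genes. All 8 tested HOXA genes had a change above 0 (median 0.68), 5 of the 8 when arrays were shifted by their median instead of the 75th percentile, a scaling that moved the median of all probes by -0.37. Groups did not overlap for 8 of the 19 members, against 33.9% of all genes, and 10 had an unadjusted p under 0.05, against 27.7%.

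HOXA3, an anterior gene needed for pharyngeal arch derivatives such as the thymus, read 0.68, 0.83, 0.93 and 1.52 on mock arrays 1-1, 1-2, 2 and 3. On TRIM58-WT arrays 1, 2 and 3 it read 2.10, 2.20 and 2.13. Every TRIM58-WT array lay above every mock array, with mock array 3 the nearest (mean 2.14 ± 0.05 (SD, n = 3) against 1.07 ± 0.40 (SD, n = 3), change 1.08, SE 0.23, adjusted p = 0.0394, limma). The change was 1.30 within slide 1 (mock 1-1, mock 2 and TRIM58-WT 1) and 0.99 within slide 2 (the other A549 arrays). Its RefSeq promoter (GRCh38.p14, chr7:27152534-27152833, minus strand, from 250 bases before the start to 50 after it) holds 15 CG pairs, set in capitals, against a median of 14 over 27305 promoters of that length. It is shown because HOXA3 was the HOXA gene called.
HOXA3: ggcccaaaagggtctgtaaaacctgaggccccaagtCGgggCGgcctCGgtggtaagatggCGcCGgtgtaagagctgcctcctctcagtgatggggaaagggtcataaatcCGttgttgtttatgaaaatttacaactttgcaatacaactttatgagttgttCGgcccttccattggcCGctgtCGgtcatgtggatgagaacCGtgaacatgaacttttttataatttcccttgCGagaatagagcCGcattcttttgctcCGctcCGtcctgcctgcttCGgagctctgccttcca

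The other HOXA genes did not reach the threshold, 3 of them with groups apart. HOXA4 read -2.35, -2.44, -2.10 and -1.41 on mock and -0.57, -1.02 and -0.60 on TRIM58-WT (1.24, adjusted p = 0.0511, limma). HOXA5, which is needed for lung and airway development, read -0.48, -0.15, -0.23 and 0.05 on mock and 0.32, 0.72 and 0.82 on TRIM58-WT (0.78, adjusted p = 0.0669, limma). HOXA2, an anterior gene of the branchial arches, read -1.07, -1.37, -1.29 and -1.61 on mock and -0.28, -1.05 and -1.05 on TRIM58-WT (0.58, adjusted p = 0.235, limma). In each of these 3 genes the lowest TRIM58-WT array lay above the highest mock array, for HOXA2 by little. HOXA7 read 0.40, 0.45, 0.14 and 1.07 on mock and 0.85, 1.81 and 1.63 on TRIM58-WT, where TRIM58-WT array 1 fell among the mock arrays (0.88, adjusted p = 0.175, limma). The posterior genes HOXA9, HOXA10 and HOXA13 had the smallest values of the 8 (0.13, 0.30 and 0.28), which turned below 0 under the median shift. HOXA9, a gene of blood progenitors, read -0.92, -0.80, -0.81 and 0.05 on mock and -1.01, 0.06 and -0.29 on TRIM58-WT. HOXA10, which acts in the uterus and in blood, read -0.58, 0.24, 0.01 and 0.97 on mock and -0.75, 1.25 and 1.22 on TRIM58-WT. HOXA13 read -2.13, -2.02, -1.83 and -1.57 on mock and -1.93, -1.48 and -1.22 on TRIM58-WT. In HOXA9 and HOXA10 mock array 3 stood with TRIM58-WT arrays 2 and 3, and TRIM58-WT array 1 stood with mock arrays 1-1, 1-2 and 2.

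HOXC4, the lowest-numbered gene of the HOXC cluster, and HOXC6, a central one, rose. HOXC4 read 0.17, 0.21, 0.43 and 0.67 on mock arrays 1-1, 1-2, 2 and 3 and 1.38, 1.76 and 1.72 on TRIM58-WT arrays 1, 2 and 3 (mean 0.43 ± 0.24 (SD, n = 3) against 1.62 ± 0.21 (SD, n = 3)). HOXC6 read 0.73, 0.63, 0.93 and 0.67 on mock and 1.91, 1.81 and 1.71 on TRIM58-WT (mean 0.76 ± 0.15 (SD, n = 3) against 1.81 ± 0.10 (SD, n = 3)). Neither gene had overlapping groups, and in HOXC6 mock array 3 lay among the other mock arrays. The changes were 1.19 (SE 0.20, adjusted p = 0.0200) and 1.05 (SE 0.16, adjusted p = 0.0148) by limma. Within slide 1 they were 1.08 and 1.08, and within slide 2 they were 1.30 and 1.11. RefSeq starts HOXC4, HOXC5 and HOXC6 at the same base, and lists the window there under HOXC4 and HOXC5 (GRCh38.p14, chr12:54016638-54016937, plus strand, 15 CG pairs), shown because HOXC4 and HOXC6 were called. HOXC5 was at background on all 11 arrays.
HOXC4: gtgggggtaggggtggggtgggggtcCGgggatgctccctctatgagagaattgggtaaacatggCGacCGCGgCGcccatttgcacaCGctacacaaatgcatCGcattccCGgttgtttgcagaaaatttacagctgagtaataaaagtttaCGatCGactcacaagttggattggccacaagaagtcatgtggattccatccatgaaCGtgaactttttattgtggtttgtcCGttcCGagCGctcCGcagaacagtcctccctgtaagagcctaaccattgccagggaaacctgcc

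HOXC8, a central gene, read -1.81, -1.86, -1.94 and -0.87 on mock and -0.85, 0.13 and -0.03 on TRIM58-WT (1.29, adjusted p = 0.0934, limma). Its groups nearly touched at mock array 3 and TRIM58-WT array 1. HOXC9 read 3.35, 3.22, 3.53 and 3.42 on mock and 3.45, 3.49 and 3.51 on TRIM58-WT, a change of 0.07 with overlapping groups. HOXC10 was at background on every A549 array, at -3.49, -4.42, -4.62 and -3.16 on mock and -3.54, -4.49 and -2.94 on TRIM58-WT. HOXC13, the posterior end of the cluster and a regulator of hair and nail keratins, was the only member called lower. It read 0.66, 0.67, 0.76 and -0.82 on mock and -1.54, -2.39 and -1.87 on TRIM58-WT, with 2 of 3 TRIM58-WT arrays above background (mean 0.20 ± 0.89 (SD, n = 3) against -1.93 ± 0.43 (SD, n = 3), change -2.13, SE 0.47, adjusted p = 0.0417, limma). Mock arrays 1-1, 1-2 and 2 agreed closely, mock array 3 lay between them and the TRIM58-WT arrays, and the groups did not overlap. The change was -2.25 within slide 1 and -2.05 within slide 2. HOXC13 passed the filter through mock alone, where it was higher. With the filter on every array it was not tested, and the members called were HOXA3, HOXC4 and HOXC6.

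None of the 5 HOXB genes tested in A549 was called by limma, 2 of them at an unadjusted p under 0.05. HOXB5 read 0.52, 0.53, 0.80 and -0.70 on mock and 1.09, -0.94 and -0.74 on TRIM58-WT. HOXB6 read 2.12, 2.09, 2.29 and 0.78 on mock and 2.50, 0.78 and 0.78 on TRIM58-WT. In both genes mock array 3 stood with TRIM58-WT arrays 2 and 3 at the low level, and TRIM58-WT array 1 stood with the other mock arrays at the high level. The 3 low arrays lie on slide 2, and mock array 1-2 on the same slide read like mock array 1-1 on slide 1. HOXB8, known from myeloid progenitors, read -2.98, -2.69, -2.77 and -0.41 on mock, with 2 of 4 arrays above background, and -0.59, 0.16 and 0.17 on TRIM58-WT (1.92, adjusted p = 0.137, limma). HOXB9, a gene of thoracic identity, read 1.25, 1.11, 1.51 and 1.94 on mock and 1.88, 2.60 and 2.71 on TRIM58-WT (0.85, adjusted p = 0.141, limma). In both genes mock array 3 was the highest mock array and lay above TRIM58-WT array 1. HOXB13 read 0.33, 0.06, 0.38 and 0.34 on mock and 0.27, 0.48 and 0.33 on TRIM58-WT, a change of 0.05. HOXB2 was not tested in A549, with -3.32, -2.93, -2.63 and -3.20 on mock and -3.21, -3.33 and -3.44 on TRIM58-WT, and no TRIM58-WT array was above background. In HOXD, HOXD8 read -1.89, -1.52, -1.70 and -1.97 on mock and -1.15, -1.98 and -1.32 on TRIM58-WT (0.31, adjusted p = 0.510, limma), and HOXD1 was at background at -5.16, -5.25, -4.82 and -4.52 and -4.81, -4.50 and -4.55.

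The A549 count turned on single arrays. Without mock replicate 3 it was 7 members (HOXA4, HOXB8 and HOXC8 added), without TRIM58-WT replicate 1 it was 2 (HOXC4 and HOXC6), and it was 0 without mock replicate 1, mock replicate 2, TRIM58-WT replicate 2 or TRIM58-WT replicate 3, as it was with TRIM58-WT replicates 2 and 3 averaged. With slide as a block it was 7, within slide 2 it was 1 (HOXC6), and under the median shift it was 1 (HOXC13). Normexp background correction and a test without the filter on dim probes also called none of the 19. The methods' t-test gave 6 members past 2-fold with an unadjusted p under 0.05, and 0 after adjustment. The share of all genes past these limits by that test was not counted.

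**Figure D3:**
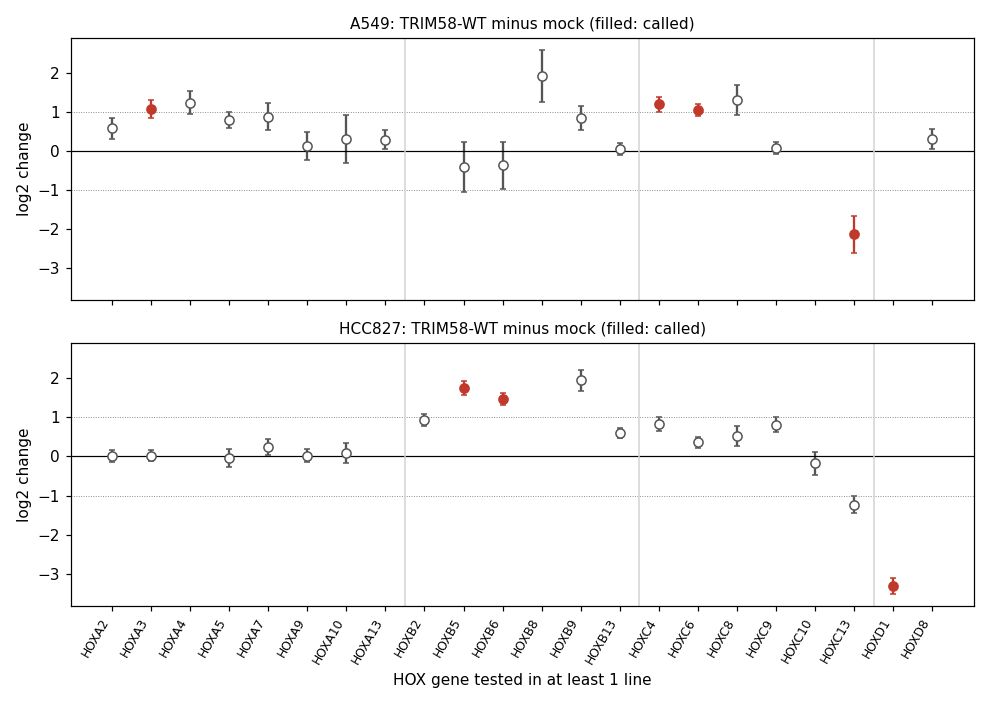
Change of each tested HOX gene between arrays labelled TRIM58-WT and mock (vertical, log2 with SE bars) in A549 (upper, n = 3 and 3) and HCC827 (lower, n = 2 and 2), by cluster, with filled points for called genes and dotted lines at 2-fold. The HOXA genes lie above 0 in A549 (3 of 8 turn below 0 under the median shift) and near 0 in HCC827, and HOXD1 is the member called lower in HCC827, where its TRIM58-WT arrays are at background.

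In HCC827, arrays labelled TRIM58-WT differed from mock in the HOXB cluster and at HOXD1. HOXB5 and HOXB6 were called higher, by 3.38-fold and 2.79-fold, and HOXD1 lower, by at least 2.54-fold. These are 3 of 18 members tested, where 1.07% of all genes tested were called (0.328% higher and 0.746% lower). HOXD1 passed the filter through mock alone, where it was higher, so its adjusted p rests partly on levels at background. With the filter on every array HOXD1 was not tested, and the members called were HOXB5, HOXB6 and HOXB9. The median change was 0.30 over the 18 members and 0.01 over all genes. All 5 tested HOXB genes had a change above 0 (median 1.48), also under the quantile, median and normexp scalings. Groups did not overlap for 11 of the 18 members, against 59.1% of all genes with 2 replicates against 2, and 9 had an unadjusted p under 0.05, against 21.8%.

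HOXB5, a central gene that acts in gut innervation and lung mesenchyme, read -1.78 and -2.17 on mock arrays 1 and 2 and -0.19 and -0.25 on TRIM58-WT arrays 1 and 2 (mean -1.98 ± 0.27 (SD, n = 2) against -0.22 ± 0.04 (SD, n = 2), change 1.76, SE 0.18, adjusted p = 0.0486, limma). HOXB6, its posterior neighbour, read 1.65 and 1.56 on mock and 3.20 and 2.97 on TRIM58-WT (mean 1.60 ± 0.07 (SD, n = 2) against 3.08 ± 0.17 (SD, n = 2), change 1.48, SE 0.15, adjusted p = 0.0483, limma). HOXB9 read 0.41 and 0.30 on mock and 2.66 and 1.95 on TRIM58-WT, a change of 1.95 (SE 0.27) that was not called (adjusted p = 0.0692, limma). In all 3 genes the replicates of a group lay closer to each other than to the other group. At the anterior end of the cluster, HOXB2 read 0.53 and 0.45 on mock and 1.52 and 1.32 on TRIM58-WT (0.93, adjusted p = 0.0794, limma). At the posterior end, HOXB13 read -1.61 and -1.61 on mock and -0.97 and -1.03 on TRIM58-WT (0.61, adjusted p = 0.115, limma). Both had groups apart and changes under 2-fold. HOXB8 was at background on every HCC827 array, between -5.36 and -4.43.

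HOXD1 was well above background on both HCC827 mock arrays (-1.82 and -2.23) and on neither TRIM58-WT array (-5.43 and -5.25), as on no A549 array. The fitted change was -3.32 (SE 0.19, adjusted p = 0.0287, limma), with measured means of -2.03 ± 0.28 (SD, n = 2) and -5.34 ± 0.13 (SD, n = 2). It was -0.50 and not called after normexp correction, which adds an offset of 50 to every signal. HAGLR, the antisense long non-coding RNA that starts within HOXD1, had means of -1.34 on HCC827 mock and -2.96 on TRIM58-WT. It was above background on all 4 HCC827 arrays (change -1.62, SE 0.20, adjusted p = 0.0624, limma) and at background on every A549 array. Like HOXD1, HAGLR was higher in HCC827 mock than in A549 mock, by at least 2.92-fold (adjusted p = 0.00107, limma). The annotated starts of HOXD1 and HAGLR lie 290 bases apart on opposite strands, with that of HAGLR inside HOXD1. Both promoter windows (GRCh38.p14, chr2:176188418-176188717, plus strand, and chr2:176188909-176189208, minus strand) are shown because HOXD1 was called and HAGLR starts within it. HOXD1's window holds 36 CG pairs and HAGLR's 45, in capitals.
HOXD1: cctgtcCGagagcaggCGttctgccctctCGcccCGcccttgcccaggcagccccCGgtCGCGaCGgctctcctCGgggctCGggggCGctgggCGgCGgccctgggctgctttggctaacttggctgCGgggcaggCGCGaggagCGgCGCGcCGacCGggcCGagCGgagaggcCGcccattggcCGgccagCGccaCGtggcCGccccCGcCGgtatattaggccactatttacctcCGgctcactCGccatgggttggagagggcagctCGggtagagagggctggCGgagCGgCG
HAGLR: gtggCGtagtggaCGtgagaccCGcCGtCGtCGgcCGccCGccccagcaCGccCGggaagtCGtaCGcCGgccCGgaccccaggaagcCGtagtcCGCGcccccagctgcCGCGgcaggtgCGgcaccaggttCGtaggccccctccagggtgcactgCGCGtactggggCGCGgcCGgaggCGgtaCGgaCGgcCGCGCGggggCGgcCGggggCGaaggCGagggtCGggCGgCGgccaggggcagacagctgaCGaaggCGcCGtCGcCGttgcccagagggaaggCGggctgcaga

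**Figure D4:**
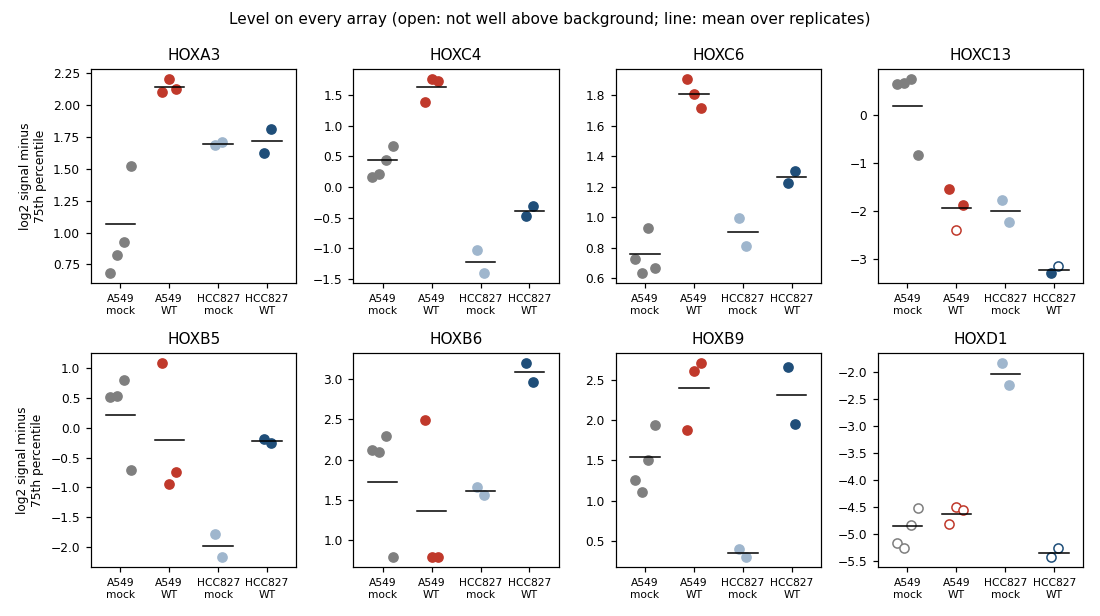
Level of 8 HOX genes on every array by group (log2 signal minus the 75th percentile, vertical axes differ between panels), with open points where the probe was not well above background and a line at the mean over replicates. HOXD1 is above background on both HCC827 mock arrays alone, and in HOXB5 and HOXB6 A549 mock array 3 and 2 A549 TRIM58-WT arrays share a low level.

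By limma, none of the 6 HOXC genes tested in HCC827 was called, 3 of them at an unadjusted p under 0.05. HOXC4 read -1.02 and -1.41 on mock and -0.47 and -0.31 on TRIM58-WT (0.83, adjusted p = 0.130, limma). HOXC9 read 1.59 and 1.23 on mock and 2.34 and 2.10 on TRIM58-WT (0.81, adjusted p = 0.138, limma). HOXC6 read 0.99 and 0.81 on mock and 1.22 and 1.31 on TRIM58-WT (0.36, adjusted p = 0.261, limma). These 3 genes and HOXC8 had higher TRIM58-WT arrays without overlap, where groups of 59.1% of all genes tested did not overlap in one direction or the other. HOXC8 read -1.67 and -2.16 and -1.64 and -1.16, where TRIM58-WT array 1 lay just above mock array 1. HOXC10 read -1.56 and -1.73 and -2.19 and -1.45, with overlap. HOXC13 read -1.77 and -2.23 on mock and -3.31 and -3.15 on TRIM58-WT, 1 of the latter above background (-1.23, adjusted p = 0.0883, limma).

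No HOXA gene was called in HCC827 (0 of 6 called by limma, 0 of 6 at an unadjusted p under 0.05 and 0 by the methods' t-test, median change 0.02). HOXA3 read 1.68 and 1.71 on mock and 1.62 and 1.81 on TRIM58-WT, HOXA5 -0.62 and -1.19 and -0.94 and -0.96, and HOXA2 -1.36 and -1.08 and -1.19 and -1.21. HOXA7 read -2.22 and -2.09 and -2.13 and -1.71, HOXA9 -0.98 and -1.33 and -1.12 and -1.15, and HOXA10 -0.28 and 0.04 and -0.33 and 0.27. Mock and TRIM58-WT arrays overlapped in all 6. HOXA4, HOXA13 and HOXD8 were at background on all HCC827 arrays, at -5.41 and -5.05, -3.41 and -2.56 and -3.56 and -3.50 on TRIM58-WT. The HCC827 count was 5 under the median shift, 1 (HOXD1) with all groups in one fit, 2 without TRIM58-WT replicate 2 (HOXB9 and HOXD1) and 0 without mock replicate 1, mock replicate 2 or TRIM58-WT replicate 1. The methods' t-test gave 2 members past 2-fold with an unadjusted p under 0.05, and 0 after adjustment, again without a count of the share of all genes.

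The difference of the change between the lines was tested with all 10 replicates. It was called for HOXD1 alone among 22 members (adjusted p = 0.00158, limma), where 4.61% of all genes were called (2.49% higher and 2.12% lower in HCC827). HOXD1 entered this test through HCC827 mock alone and was at background in the other 3 groups, so its fitted difference (HCC827 change minus A549 change -3.54) is no measured size, and a fall in A549 could not be seen. HOXB2 came next (1.27, adjusted p = 0.0518, limma), and it too had no A549 TRIM58-WT array above background. The differences for HOXB5 and HOXB6 were 2.16 (SE 0.90) and 1.85 (SE 0.84), with adjusted p of 0.246 and 0.290 by limma. For HOXA3 the difference was -1.05 (SE 0.33, adjusted p = 0.124, limma), so a HOXA change particular to A549 was not shown. Without A549 mock replicate 3 the test called 5 members (HOXA3, HOXA4, HOXB2, HOXB8 and HOXD1), and without A549 TRIM58-WT replicate 1 it called 3 (HOXB2, HOXB5 and HOXD1).

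The 2 TRIM58 comparisons share no array with each other, but the comparison of the mock groups uses the mock arrays of both. HOXB5, HOXC4, HOXC13 and HOXD1 were called between the mock groups and in a TRIM58 comparison, and such paired calls are not independent. Of the 15 members tested in both lines, 11 had a change above 0 in both (27.4% of all genes), 1 below 0 in both and 3 opposite signs, and the A549 values of HOXA9, HOXA10, HOXB13 and HOXC9 among the 11 turned below 0 under the median shift. Groups did not overlap in either line for 4 of the 15, against 20.1% of all genes tested in both, and these were HOXC4 (1.19 in A549 and 0.83 in HCC827), HOXC6 (1.05 and 0.36), HOXC8 (1.29 and 0.52) and HOXC13 (-2.13 and -1.23). HOXC13 was the member lower in both, and in each line it passed the filter through mock alone. No gene of these 15 was called in both lines.

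Of the 38 members, 4 had a further probe, and 3 of these probes gave another reading. For HOXA9, the second probe was at background on every A549 array and between -0.68 and -0.23 on the HCC827 arrays, at least 5.04-fold higher in HCC827 mock than in A549 mock (adjusted p = 0.0107, limma), while the brighter probe gave 0.61 and no call. The second HOXA10 probe was also called lower in A549 mock (-1.99, adjusted p = 0.00139, limma), against 0.39 and no call for the brighter one. The second HOXB2 probe read -0.37 (adjusted p = 0.212, limma) where the brighter one gave -3.48. Neither probe of HOXD9, the fourth gene, passed the filter, and its other probe was above background on A549 TRIM58-WT array 1 alone (-2.14). Which transcripts each probe meets was not analysed here.

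Genes that work with the HOX clusters were counted from lists, to be read against the 7.94% of all genes called in A549, 1.07% in HCC827 and 31.9% between the mock groups. Of the TALE cofactors, 6 were tested in A549 and 1 was called, PBX4, which fell by 2.15 on the log2 scale in TRIM58-WT (adjusted p = 0.0059, limma), and none of 7 was called in HCC827 by limma (1 at an unadjusted p under 0.05). Between the mock cells, 3 of 7 cofactors were called, among them PKNOX1 (2.31), higher in A549, and PBX2 (-1.11), lower. In the retinoic acid pathway, whose signal switches on anterior HOX genes, 3 of 12 genes were called in A549. CYP26A1, which degrades retinoic acid, was at background on every A549 mock array and at least 3.88-fold higher in TRIM58-WT (adjusted p = 0.0126, limma). The receptor RARA rose by 1.57 (adjusted p = 0.0224, limma), and RDH10, an enzyme of retinoic acid synthesis, fell by 2.09 (adjusted p = 0.0237, limma). Between the mock cells 7 of 12 were called, 2 higher and 5 lower in A549. None of the 10 tested in HCC827 was called by limma (3 at an unadjusted p under 0.05). Limma called none of the Polycomb genes, which hold HOX clusters silent, in A549 (0 of 19) or HCC827 (0 of 20), with 1 and 4 at an unadjusted p under 0.05. For the Trithorax group and MLL partners, which keep HOX clusters active, it called 0 of 12 in each line, with 2 and 4 at an unadjusted p under 0.05. Neither CDX1 nor GDF11, upstream regulators of posterior HOX genes, was called in either line by limma (1 of 2 in A549 and 0 of 2 in HCC827 at an unadjusted p under 0.05). Of the 17 long non-coding RNAs of the clusters listed, 5 had a probe, none passed the filter in A549, and of 3 tested in HCC827 limma called none (2 at an unadjusted p under 0.05). Between the mock cells, limma called 4 of 20 Polycomb genes (2 higher and 2 lower in A549), 0 of 12 Trithorax and MLL genes (4 at an unadjusted p under 0.05), 1 of 2 upstream regulators (lower) and 2 of 3 long non-coding RNAs (both lower).

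At the ends of the clusters, no gene was called in either TRIM58 comparison. Genes at the cluster ends, such as MTX2 beside HOXD, gave no call by limma in A549 (0 of 9) or HCC827 (0 of 10), with 3 and 2 at an unadjusted p under 0.05. The median change of the other genes on chromosomes 2, 7, 12 and 17 lay between 0.03 and 0.11 in A549 and between -0.17 and 0.13 in HCC827.

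RefSeq promoters of 300 bases were at hand for 19 of the 38 members. They held a median of 22 CG pairs (4 to 44) against 14 over all 27305 promoters. The box CCAAT, searched on both strands, occurred in 16 of the 19 (84.2%) and in 35.7% of all promoters. The HOX-PBX motif TGATNNAT occurred in 3 (15.8%, HOXA2, HOXB1 and HOXD11) and in 7.6% of all, and the CDX motif TTTATG in 3 (15.8%, HOXA3, HOXA9 and HOXD8) and in 11% of all. Each gene counted once for a motif, here and over all promoters. The window that HOXC4 and HOXC5 share is therefore counted under both genes, in the 19 and in the 16 with CCAAT. Overlaps between motifs were not resolved. Of the printed windows, those of HOXA3, HOXC4 and HOXD1 hold CCAAT, HOXA3 also the CDX motif, and HAGLR none of the 3.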

How the data were processed

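RNA of the 4 groups was hybridised in 1 colour to 11 Agilent arrays of human transcripts (42405 probes). The authors deposited the intensity of each spot, extracted with Agilent Feature Extraction 11.5.1.1 per the file headers (10.7 in the submitters' processing notes), background-subtracted and with no scaling between arrays. They also deposited a table of log2 values whose baseline is not stated. With the median difference per probe as baseline, 95.5% of those log2 values lay within 0.01 of the values used here, and the largest difference was 4.93.

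Here, R 4.3.3 and limma 3.58.1 were used. Control and outlier spots were left out, spots of a probe were averaged, and each array's 75th percentile was taken from the log2 signal. Well above background was read per probe, as a share of flagged spots over 0.5. Probes detected so on all arrays of 1 or more of the compared groups were fitted over the whole table (lmFit, eBayes) and called at an adjusted p under 0.05 and 2-fold, the difference between lines at the adjusted p alone. A gene was read from its brightest probe. A fold against a group at background is a bound, from the brighter group's mean against the dim arrays, each set to the probe's own signal or to the array's lowest detected signal, whichever was higher. Of 28302 probes with a RefSeq accession, 27241 were named through RefSeq (GRCh38.p14). The array design is older, so only the build of the RefSeq promoters is given with coordinates.

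The members and lists were chosen with earlier results of these data known. Members called, or detected on all arrays of a group, are named, with the 3 largest called changes of each list. Welch's test, named in the statistics section of the methods, is called the methods' t-test. The alternatives changed normalization, background correction, filter, samples, replicate block, slide, test, probe, threshold and the use of mock arrays 1-1 and 1-2, left out each replicate in turn, used the authors' log2 table, and averaged TRIM58-WT replicates 2 and 3 (added after the data were seen). The fit was tested on simulated data with 200 probes changed by 2 (log2), of which 63.5% were called in the A549 design (16921 probes), 51.5% in the HCC827 design (19542 probes), 51.5% between the mock groups (19500 probes) and 40.5% in the difference between lines (20618 probes). The number of arrays limits the precision. Values of some listed genes are not reported here. The plots used matplotlib 3.10.9 under Python 3.11.15.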

Additional observations from a re-analysis of the deposited data

Results flagged for a closer look

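HOXD1 passed the test of a difference in change between the lines, with a fitted HCC827 change minus A549 change of -3.54 on the log2 scale (limma, adjusted p = 0.00158). The difference was called in 23 of 24 alternatives, including each of the 10 that left out a replicate, and not after normexp correction (-0.67, adjusted p = 0.146). HOXD1 was at background on all 7 A549 arrays and both HCC827 TRIM58-WT arrays and passed the filter through HCC827 mock alone, so the fitted value rests on levels at background and is no measured size.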

How the results depend on the processing

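Members called in A549 (4) came to 1 with a median shift or within slide 2, 0 with normexp, without the filter, with the methods' t-test or with TRIM58-WT replicates 2 and 3 averaged, 2 with the replicate block, 7 with slide as a block, and 0 to 7 with a replicate left out. In HCC827 (3) there were 5 with a median shift, 0 without the filter, with the replicate block or with the methods' t-test, 1 with all groups in one fit or with the authors' log2 table, and 0 to 2 with a replicate left out. Between the mock groups (13) there were 6 with normexp, 7 with the filter on every array, 5 with the methods' t-test, and 8 to 12 with a replicate left out. For the difference between lines (1) there were 0 with normexp or the filter on every array, 3 with slide as a block, 5 within slide 1, 2 with mock arrays 1-1 and 1-2 counted separately or with 1-2 alone, and 1 to 5 with a replicate left out. The other 52 recounts lay within 1.5 times the main count, which compares counts and not the genes called. In HCC827, normexp called 2 members, 1 of them among the main 3. The filter on every array called 3 there, 2 of them among the main 3. No member called in a comparison changed sign. The causes were not tested. A fit that leaves a replicate out has fewer samples, and a fit without the filter adjusts over more probes. Where a replicate was left out of an HCC827 group, its lone array was assumed to vary like the others. Replicate numbers only share a number: deviations of same-numbered A549 replicates correlated at 0.50, -0.42 and 0.50, and of HCC827 at 0.08. Differently numbered A549 replicates ran from -0.59 (mock 3 with TRIM58-WT 1) to 0.57 (mock 3 with TRIM58-WT 2). Levels near background (HOXD1, HOXA4, HOXA13, HOXC10, HOXD8) give bounds only.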
